A study of Mus musculus with 4 samples.

Results

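MHC class II molecules are pairs of an alpha and a beta chain that carry peptides from the endosome to the surface of antigen-presenting cells, where CD4+ T cells read them. The 8 genes examined here, of the 47729 in the deposited expression values, are the classical chains H2-Aa, H2-Ab1 and H2-Eb1, the invariant chain Cd74, the peptide-loading chains H2-DMa and H2-DMb1, the class II transactivator Ciita and the invariant-chain protease Ctss. They were chosen by name for their place in the pathway, with earlier results of these data known. All 8 passed the limit for testing, a mean of at least 1 RPM (reads per 1000000 reads counted on genes), which 13694 genes reached.

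RNA was sequenced from tumors formed by LLC cells, a Lewis lung carcinoma line of C57BL/6 origin, taken 5 days after subcutaneous graft into syngeneic young adult C57BL/6 mice. Control tumors (LLC) came from cells called wild type in the labels, and the study also describes cells carrying the empty vector. LLC-Chem tumors came from cells transfected with a pEFIN plasmid for murine chemerin (1-157), a bioactive form. After selection the transfected cells were collected as individual clones, so differences between clones and effects of chemerin cannot be told apart. Each group has 2 pools of 3 tumors, each pool sequenced as 1 library.

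The spacing of the deposited values gave library totals between 28470000 and 33990000 reads, and 3 reads, the floor used for detection, correspond to between 0.088 and 0.105 RPM (counting error only). Rarres2, which encodes chemerin, measured 102 and 98.2 RPM in LLC tumors against 106 and 106 RPM in LLC-Chem tumors, and was not called (log2 fold change 0.08, limma adjusted p = 0.541). These values, from tumors that also hold host cells, do not show the excess of chemerin RNA that the label LLC-Chem implies. In culture, the study reports, medium of chemerin-transfected LLC cells activated cells carrying the chemerin receptor CMKLR1, and medium of vector cells did not. It also reports no significant chemerin expression in cultured LLC cells. LLC-Chem in what follows means the libraries labelled so. Of the carcinoma and lung epithelial markers, Krt8 and Krt18 were between 82.8 and 167 RPM, while Epcam did not exceed 0.20 RPM and Nkx2-1 was at 0 RPM in all 4 pools.

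In mice of the b haplotype, to which C57BL/6 belongs, the partner of H2-Eb1, H2-Ea, is a pseudogene, so that the classical class II molecule of these animals is I-A, made of H2-Aa and H2-Ab1. Cd74 holds newly made pairs in the endoplasmic reticulum and blocks their groove. Ctss, cathepsin S, cuts Cd74 down to a short fragment, which the H2-DM pair then exchanges for a peptide. Ciita binds no DNA itself: it is recruited to the X and Y boxes of class II promoters by the RFX complex, CREB and NF-Y. In most tissues the pathway belongs to macrophages, dendritic cells and B cells, and interferon-gamma can switch it on elsewhere. In tumor RNA as a whole, fewer cells of a type and less RNA per cell cannot be told apart.

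Promoters are shown because the X and Y boxes are where Ciita is recruited. Sequences are from RefSeq on GRCm38.p6, which gave a window for 5 of the 8 members and none for H2-Ab1, Cd74 and Ciita. The 110 bases before the start of H2-Aa (chr17:34287824-34287933, minus strand) and of H2-Eb1 (chr17:34305757-34305866, plus strand) are printed 5′ to 3′ with the X box and the Y box in capitals, followed by the same stretch of H2-Ob (chr17:34238795-34238904, plus strand), a class II chain of low level in these tumors.
H2-Aa: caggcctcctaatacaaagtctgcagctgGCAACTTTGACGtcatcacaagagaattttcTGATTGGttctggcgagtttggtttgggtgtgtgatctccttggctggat
H2-Eb1: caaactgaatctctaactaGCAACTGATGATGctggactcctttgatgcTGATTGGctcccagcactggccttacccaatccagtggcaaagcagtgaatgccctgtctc
H2-Ob: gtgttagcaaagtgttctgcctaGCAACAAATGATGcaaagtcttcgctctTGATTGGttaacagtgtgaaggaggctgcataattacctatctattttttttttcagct

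The X box was searched as GNAAC and TGANG with 2 or 3 bases of any kind between them and the Y box as TGATTGG, on both strands of the 250 bases before each start, and no match overlapped another in the printed sequences, with letters set after these promoters had been read. H2-Aa, H2-Eb1 and H2-DMb1 each held both boxes, the X box starting 81, 91 and 94 bases before the gene start and the Y box 31, 30 and 31 bases further on. H2-Ob held the same arrangement, with 28 bases between the starts of the boxes. H2-Eb2, H2-DMb2 and H2-Oa, the other class II chains with a window, held the Y box but not the X box as searched. Of 32851 mouse promoter windows, 1.49% held the X box, 7.23% the Y box and 0.125% both. The windows of H2-DMa and Ctss held neither run of letters. The Ctss window held an interferon regulatory factor element, searched as GAAA, 2 bases of any kind and GAAA again, which was found in 2.98% of all windows. It lies just before the start and is in capitals in the last 60 bases (chr3:95526726-95526785, plus strand). GAGGAAGT, a run that the myeloid factor PU.1 can bind, was searched as well and was in none of the members' windows, against 2.44% of all windows.
Ctss: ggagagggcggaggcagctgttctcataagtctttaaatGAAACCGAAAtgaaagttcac

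Each of the 8 class II genes stood lower in every LLC-Chem pool than in any LLC pool, at 29.0% to 53.8% of the LLC mean. Among all genes tested, 39.3% were lower in this way. By a two-sided limma test of log2(RPM + 0.5), adjusted by Benjamini-Hochberg across every gene tested, 3 of the 8 passed an adjusted p under 0.05 as lower, namely Ctss, H2-Aa and Ciita, against a background of 13.5% of genes called lower. The other 5 had adjusted p from 0.0522 to 0.0727 from limma. None of the 8 was called higher by limma, edgeR or DESeq2, and 0 had an unadjusted p under 0.05 in that direction, where limma called 9.54% of all genes higher and 33.1% were higher in both LLC-Chem pools. The median log2 fold change of the 8 was -1.71, beside -0.04 over all genes tested. With 2 pools against 2, an exact permutation test of 1 gene cannot go below p = 0.33, and the p-values measure only the spread between these pools.

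**Figure D1:**
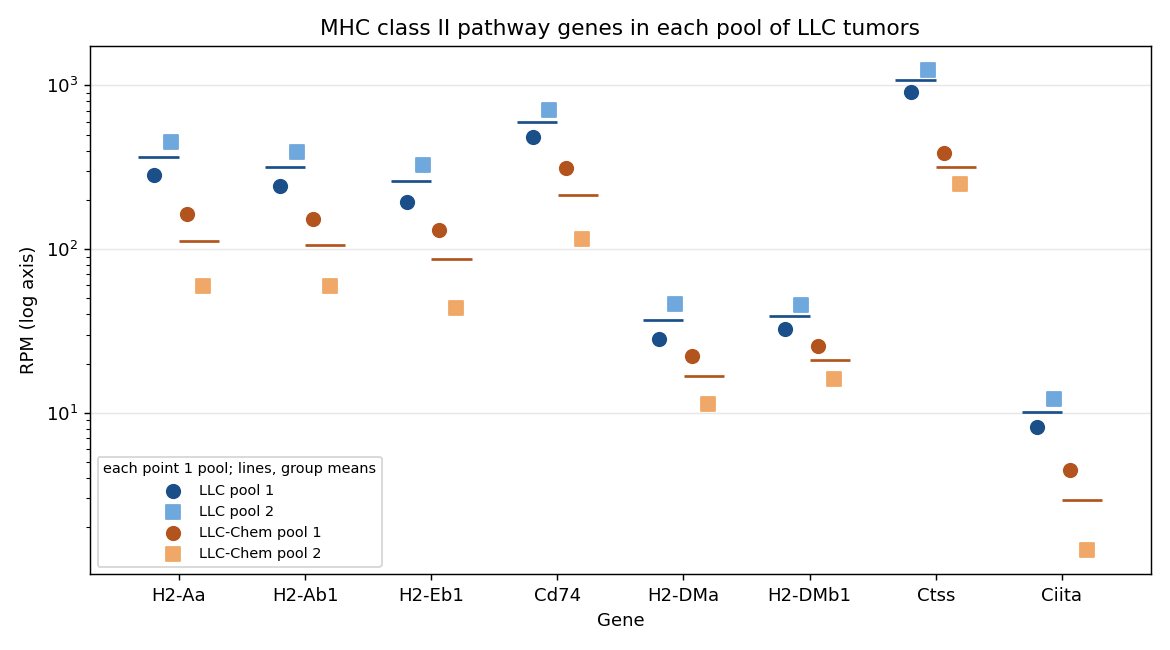
RPM of the 8 class II genes in each of the 4 pools on a log axis; each point is 1 pool and horizontal lines are group means. For every gene both LLC-Chem pools lie below both LLC pools, and the second LLC-Chem pool is the lowest of the 4.

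H2-Aa (ENSMUSG00000036594), the alpha chain of I-A, is encoded at 34282744 to 34287823 of chromosome 17 (GRCm38, minus strand). Its level was 282 and 449 RPM in LLC tumors against 163 and 59.7 RPM in LLC-Chem tumors. The groups did not overlap, but on the log2 scale the LLC-Chem pools stood further apart (1.45) than the first LLC pool and the first LLC-Chem pool (0.79). LLC tumors averaged 366 ± 118 RPM (SD, n = 2), and LLC-Chem tumors 111 ± 73.2 RPM (SD, n = 2). H2-Aa fell by 1.84 on the log2 scale (standard error 0.49, 95% interval -3.05 to -0.64, adjusted p = 0.0474 from limma). The call was lost with TMM scaling (adjusted p = 0.0528), by edgeR (adjusted p = 0.0666) and by DESeq2 (adjusted p = 0.0741).

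H2-Ab1 (ENSMUSG00000073421; chromosome 17, 34257689 to 34269419, plus strand), the beta chain that pairs with H2-Aa, went from 243 and 391 to 154 and 59.4 RPM. Its order over the 4 pools was that of H2-Aa, and its log2 fold change of -1.69 (standard error 0.47) missed the threshold at an adjusted p of 0.0522 from limma. H2-Eb1 (ENSMUSG00000060586; chromosome 17, 34305867 to 34316674, plus strand), the beta chain without a working partner, stood at 194 and 328 RPM in the LLC pools and at 131 and 43.8 RPM in the LLC-Chem pools. It was the most variable of the 3 chains within groups, and its log2 fold change of -1.73 (standard error 0.53) missed the threshold (limma adjusted p = 0.066). H2-Ea-ps, the alpha pseudogene, was at 0 RPM in all 4 pools.

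Cd74 (ENSMUSG00000024610; chromosome 18, 60803848 to 60812652, plus strand) was second in level among the 8 genes per kilobase of exon (353 RPM per kilobase in the LLC mean), at 481 and 706 RPM in LLC tumors against 315 and 116 RPM in LLC-Chem tumors. LLC tumors averaged 593 ± 159 RPM (SD, n = 2) and LLC-Chem tumors 215 ± 141 RPM (SD, n = 2), with a log2 fold change of -1.61 (95% interval -2.78 to -0.43) that missed the threshold (limma adjusted p = 0.0599). The first LLC-Chem pool lay 0.61 below the first LLC pool on the log2 scale, where the LLC pools were 0.55 apart.

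Ctss (ENSMUSG00000038642; chromosome 3, 95526786 to 95556403, plus strand) had the highest level per kilobase of exon (794 RPM per kilobase in the LLC mean), at 914 and 1242 RPM in LLC tumors against 388 and 249.1 RPM in LLC-Chem tumors. The gap between the groups was wider than in the other 7 genes, since the lowest LLC value lay 1.24 above the highest LLC-Chem value on the log2 scale, against 0.32 to 0.81 for the others. Ctss fell by 1.78 on the log2 scale (standard error 0.26, 95% interval -2.42 to -1.13, adjusted p = 0.0151 from limma). With TMM scaling Ctss was the one member called (adjusted p = 0.0177 from limma), and it was also the one member called by edgeR's quasi-likelihood test on recovered reads (adjusted p = 0.0214).

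The H2-DM chains were weaker, with LLC means of 10.8 (H2-DMa) and 23.1 (H2-DMb1) RPM per kilobase against 96.3 to 134 RPM per kilobase for the classical chains. H2-DMa (ENSMUSG00000037649; chromosome 17, 34119541 to 34139101, plus strand) measured 28.2 and 46.1 RPM in LLC tumors against 22.2 and 11.3 RPM in LLC-Chem tumors, a log2 fold change of -1.16 (SE 0.37, limma adjusted p = 0.0727). H2-DMb1 (ENSMUSG00000079547; chromosome 17, 34153072 to 34160230, plus strand) measured 32.3 and 45.3 RPM against 25.7 and 16.0 RPM, a log2 fold change of -0.90 (SE 0.27, limma adjusted p = 0.0637). Both genes carry an uncertainty of counting. Among the words of 50 bases in the transcripts of H2-DMb1, 22.6% also occur in its neighbour H2-DMb2, so reads may have been split or dropped. In H2-DMa, 10.4% of the exonic bases lie under exons of Brd2 on the other strand, and the sources do not say whether counting used the strand. Brd2 itself was between 298 and 351 RPM and was not called (log2 fold change 0.16, limma adjusted p = 0.296).

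Ciita (ENSMUSG00000022504; chromosome 16, 10480059 to 10528418, plus strand), the transactivator of the chain genes, had the lowest level per kilobase (1.07 RPM per kilobase in the LLC mean). LLC tumors gave 8.20 and 12.1 RPM, or 252 and 345 recovered reads, and LLC-Chem tumors 4.45 and 1.45 RPM, or 151 and 48 recovered reads. Every pool was well above the limit of counting, and the order of the pools was again that of the chains. Ciita fell by 1.76 on the log2 scale (standard error 0.47, 95% interval -2.92 to -0.59, adjusted p = 0.0485 from limma). The call was lost with a pseudocount of 0.1 (log2 fold change -1.93, adjusted p = 0.053), a limit of 5 RPM (adjusted p = 0.0534), TMM scaling (adjusted p = 0.0538) and edgeR (adjusted p = 0.0718), and was kept by DESeq2 (adjusted p = 0.00698). The values sum over its alternative first exons, which the gene-level values do not separate.

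Leaving out pools moved the sizes of these changes but kept their direction. Without the second LLC-Chem pool the log2 fold change was -1.12 for H2-Aa, -1.08 for Ciita and -1.46 for Ctss, and without the first it was -2.57, -2.43 and -2.10. With any 1 pool left out, limma called 0 of all genes tested, against 1580 to 2823 genes lower at an unadjusted p under 0.05, so the loss of a call in that design tells nothing about a single gene.

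Within each group the 8 genes also moved together. All 8 were higher in the second LLC pool than in the first, by 0.44 (Ctss) to 0.76 (H2-Eb1) on the log2 scale, where 41.7% of all genes tested were. All 8 were lower in the second LLC-Chem pool than in the first, by 0.64 (Ctss) to 1.57 (H2-Eb1), where 51.6% of all genes tested were. The full order of the pools, second LLC, first LLC, first LLC-Chem and second LLC-Chem, was that of all 8 genes and of 13.8% of genes tested. The median size of the difference between the LLC-Chem pools was 1.35 over the 8 genes and 0.13 over all genes tested, and between the LLC pools 0.61 and 0.19. The median standard error was 0.47 for the 8 genes and 0.15 for all.

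The ratios among the chains varied less over the pools than their levels did. The summed level of H2-Aa, H2-Ab1 and H2-Eb1 went from 720 and 1168 RPM in the LLC pools to 448 and 163 RPM in the LLC-Chem pools. Per kilobase of exon, H2-Aa over H2-Ab1 was 0.784 and 0.776 in the LLC pools and 0.719 and 0.679 in the LLC-Chem pools, without overlap between the groups. Cd74 over H2-Ab1, also per kilobase, was 3.02 and 2.76 in the LLC pools and 3.13 and 2.98 in the LLC-Chem pools, so that invariant chain stayed near 3 times the beta chain. H2-Eb1 over H2-Ab1 ranged from 0.974 to 1.13. The loading chains did not keep such a ratio. H2-Ab1 over H2-DMb1, per kilobase, was 4.93 and 5.65 in the LLC pools and 3.91 and 2.42 in the LLC-Chem pools. These ratios are descriptions over 4 pools, and the lengths are those of all annotated exons.

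The RFX complex, NF-Y and CREB bring Ciita to the X and Y boxes. Of their 7 genes listed, 0 were called lower by limma, by edgeR or by DESeq2, and 0 had an unadjusted p under 0.05 in that direction, beside 13.5% of all genes called lower. Limma called 1 of the 7 higher, beside 9.54% of all genes. Rfx5, the DNA-binding subunit of RFX, rose from 11.9 and 10.5 to 16.1 and 20.4 RPM (log2 fold change 0.67, limma adjusted p = 0.0478). That call was lost with eBayes without trend (adjusted p = 0.0595) and with a mean of at least 0.1 RPM as the limit (adjusted p = 0.0755). Nfya, a subunit of NF-Y, was at 68.7 and 69.7 RPM in LLC tumors against 86.8 and 88.9 RPM in LLC-Chem tumors. It missed the threshold (limma adjusted p = 0.0501), with a range of 0.0204 to 0.317 over the alternatives, and passed with TMM scaling (adjusted p = 0.0381). The median log2 fold change of the 7 was 0.17.

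Of 3 lineage factors that act on Ciita in antigen-presenting cells, 2 were called lower by limma, beside 13.5% of all genes. The median log2 fold change of the 3 was -1.36, beside -0.04 over all genes tested. Spi1, which encodes PU.1, fell from 83.8 and 100.5 to 52.4 and 24.0 RPM (log2 fold change -1.36, limma adjusted p = 0.0469), and its call was lost with TMM scaling (adjusted p = 0.0521) and by edgeR. With 1 pool left out, the log2 fold change of Spi1 ran from -1.914 to -0.804. Irf8, which drives macrophage and dendritic cell development, fell from 48.9 and 51.5 to 18.7 and 10.5 RPM (log2 fold change -1.80, limma adjusted p = 0.0158). Irf4, a related factor of B cells and dendritic cells, was not called (log2 fold change -1.02, limma adjusted p = 0.133).

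Of 9 genes of the interferon-gamma route to Ciita, 8 were tested and 1 was called lower by limma, beside the 13.5% of all genes called lower, and 7 of the 8 had a negative log2 fold change, with a median of -0.30. The called gene was Ifngr2, the accessory chain of the receptor, which fell from 94.6 and 93.1 to 64.1 and 62.7 RPM (log2 fold change -0.56, limma adjusted p = 0.0187). For Ifngr1, the ligand-binding chain, the log2 fold change was -0.70, which limma did not call (adjusted p = 0.0573). Jak1 lay at -0.03 and flipped to 0.02 with TMM scaling. Irf1, a transcription factor induced by interferon, was at 101 and 78.1 RPM in LLC tumors against 84.1 and 207 RPM in LLC-Chem tumors, and so was highest in the pool where the class II genes were lowest. Ifng itself did not exceed 0.50 RPM in any pool and was not tested.

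**Figure D2:**
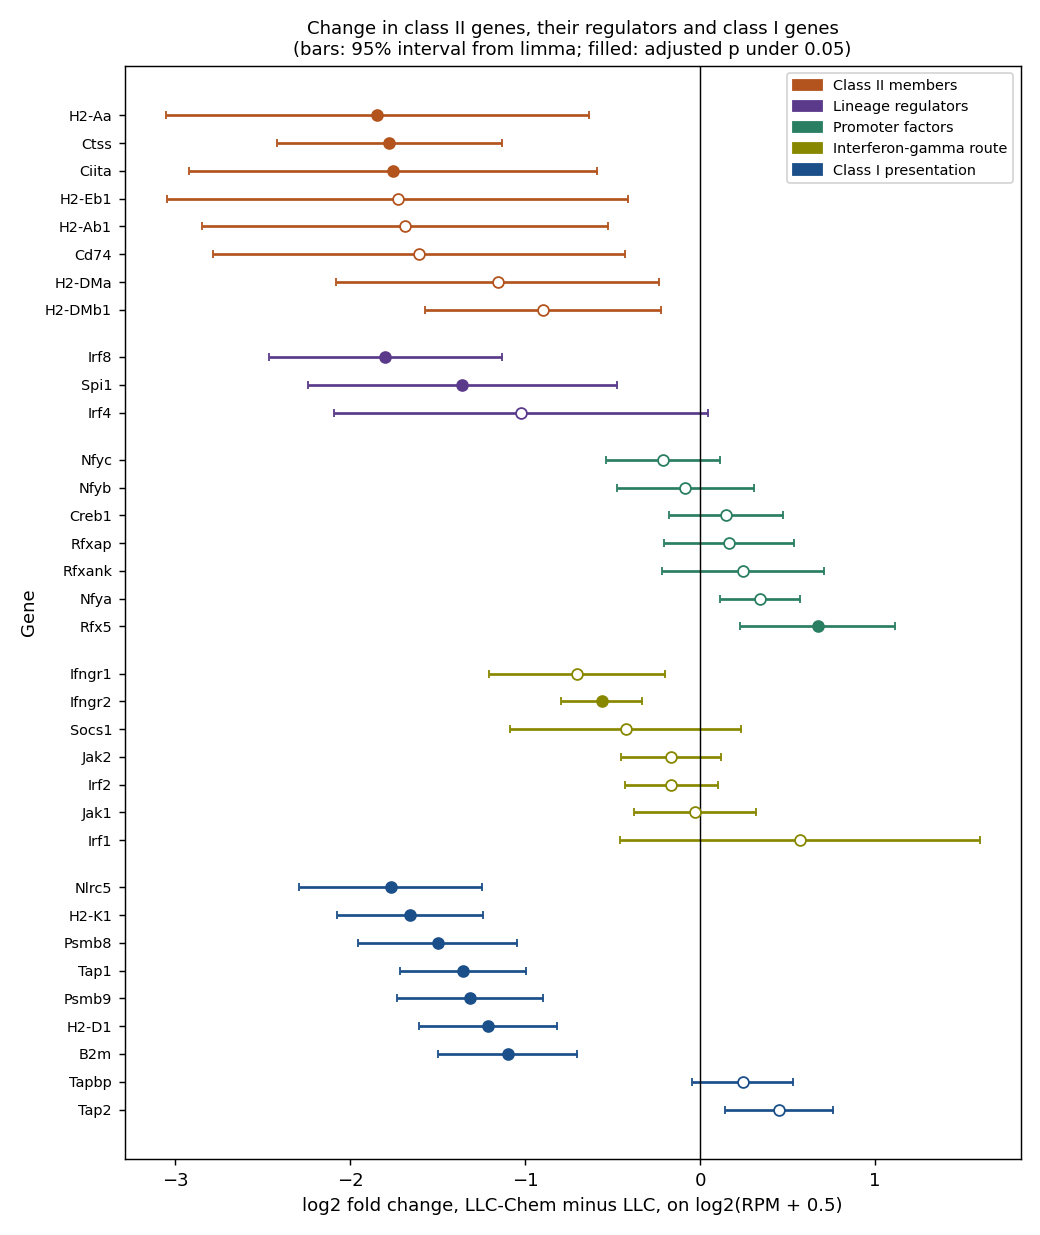
Log2 fold change of tested genes, LLC-Chem minus LLC, with its 95% interval from limma, for the class II members, named factors that regulate them and class I genes; filled points passed an adjusted p under 0.05. The 8 members lie between -1.84 and -0.90 with wide intervals, the promoter factors between -0.21 and 0.67, and 7 of the 9 class I genes between -1.77 and -1.10 with narrow ones.

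Of the endosomal proteases and the reductase Ifi30, 3 of 9 were called lower by limma, beside 13.5% of all genes. Ctsh, an aminopeptidase, fell from 215 and 331 to 111 and 76.0 RPM (log2 fold change -1.53, limma adjusted p = 0.0205). Ctsc fell by 1.21 log2 units (adjusted p = 0.0241) and Lgmn, the asparaginyl endopeptidase that can start the cutting of Cd74, by 0.93 (adjusted p = 0.0278), both from limma. Both calls were lost with a mean of at least 0.1 RPM as the limit (adjusted p = 0.0521 and 0.0565). Ctsl, which does the work of Ctss in the thymus, was at 2472 and 1961 RPM in LLC tumors against 2053 and 1876 RPM in LLC-Chem tumors (log2 fold change -0.17, limma adjusted p = 0.557). Ifi30, which reduces disulfide bonds of antigens, was not called (log2 fold change -0.48, limma adjusted p = 0.137), nor was Cst3, a cathepsin inhibitor (log2 fold change -0.45, limma adjusted p = 0.131). The median log2 fold change of the 9 was -0.68.

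The other class II chains were at low levels. H2-Oa and H2-Ob, whose product restrains H2-DM, were at 0.05 to 0.30 RPM and at 0.40 to 2.30 RPM. H2-DMb2 was at 2.60 and 4.50 RPM in LLC tumors against 2.45 and 1.00 RPM in LLC-Chem tumors. Of the 5 genes of this list 2 were tested, and 0 were called or had an unadjusted p under 0.05 by limma, edgeR or DESeq2. March1, the ubiquitin ligase that removes class II molecules from the surface, went from 22.9 and 23.8 to 15.9 and 8.89 RPM without being called (log2 fold change -0.94, limma adjusted p = 0.0587). March8, its close relative, stayed between 78.6 and 87.2 RPM. Cd83, which protects class II molecules from March1, was not called either (log2 fold change -0.68, limma adjusted p = 0.155). Of these 3 turnover genes limma and edgeR called 0, with 1 at an unadjusted p under 0.05 by each, and DESeq2 called 1 lower. Of the 4 costimulatory genes, 2 were called lower by limma, beside 13.5% of all genes. Cd40 fell from 14.8 and 17.9 to 7.65 and 5.05 RPM (a log2 fold change of -1.32, with adjusted p = 0.0225), and Cd80 from 16.1 and 13.2 to 6.80 and 5.75 RPM (a log2 fold change of -1.16, with adjusted p = 0.0179), both from limma.

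Of 9 class I presentation genes 7 were called lower by limma, beside 13.5% of all genes, and Tap2 and Tapbp were not called and had positive log2 fold changes of 0.45 and 0.24. The median standard error of the 9 was 0.16, against 0.47 for the class II genes, a difference that was not tested. Among the 7 was Nlrc5, the class I counterpart of Ciita, which fell from 45.5 and 32.9 to 12.4 and 9.74 RPM (log2 fold change -1.77, limma adjusted p = 0.0126). H2-K1, a classical class I heavy chain, fell from 1039 and 1006 to 375 and 280 RPM (log2 fold change -1.66, limma adjusted p = 0.0105). The log2 fold changes of H2-K1 (-1.66) and H2-Ab1 (-1.69) had standard errors of 0.17 and 0.47, and their difference was not tested. The 3 class II chains over H2-K1 and H2-D1 summed were at 0.248 and 0.391 in the LLC pools and 0.352 and 0.156 in the LLC-Chem pools, so the groups overlapped.

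The class II genes on chromosome 17 are interleaved with genes of class I presentation, and neighbours differed in direction. Within 100 kb of the 5 members there, 11 other genes were tested. Of these, 3 were called lower by limma, Psmb9, Tap1 and Psmb8, beside 13.5% of all genes. These 3 lie between H2-DMb1 and H2-Ab1 and encode immunoproteasome subunits and a chain of the peptide transporter. Tap2, the partner of Tap1 in that transporter and the next gene after Psmb8, went the other way, from 41.9 and 37.0 to 50.8 and 57.4 RPM (log2 fold change 0.45, limma adjusted p = 0.0521, falling to 0.0379 after TMM scaling). On the far side of H2-DMa, Brd2, Col11a2, Rxrb, Slc39a7 and Ring1 had log2 fold changes from 0.06 to 0.32 and were not called.

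**Figure D3:**
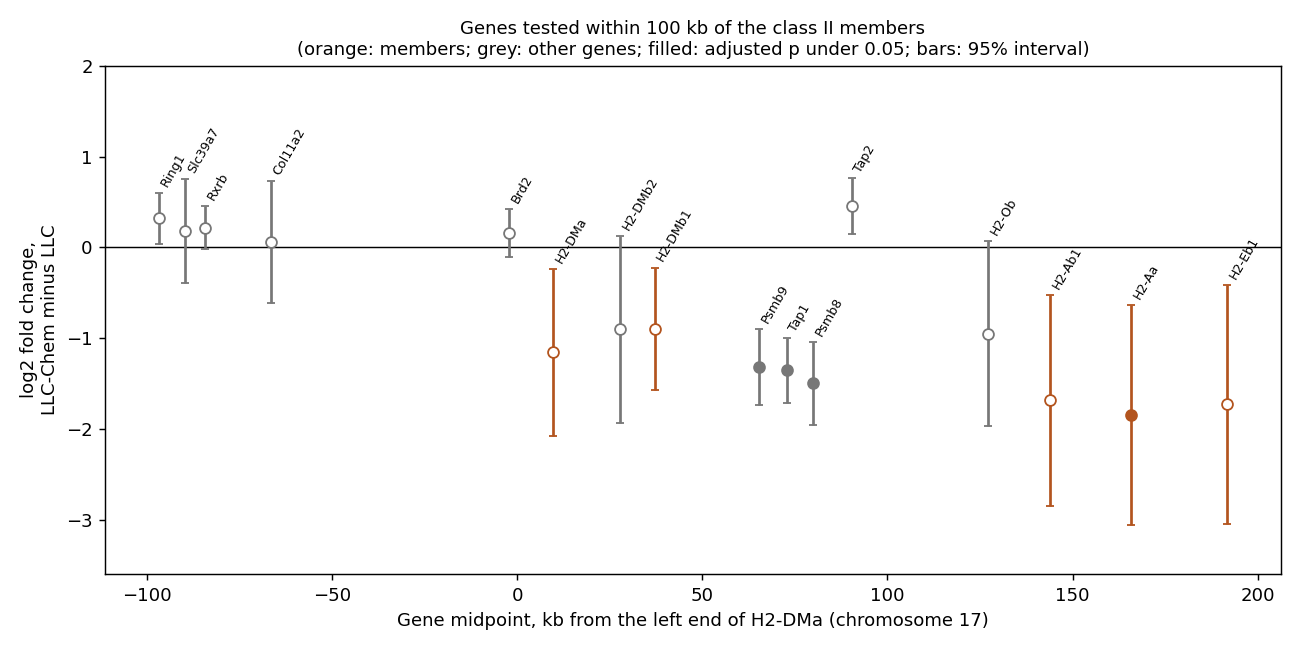
Log2 fold change with 95% interval from limma for the 16 genes tested within 100 kb of the class II members on chromosome 17, against the gene's midpoint in kb from the left end of H2-DMa. The members, Psmb9, Tap1, Psmb8, H2-DMb2 and H2-Ob lie below 0, while Tap2 and the 5 genes from Ring1 to Brd2 lie above it.

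Some markers of cells that carry class II molecules were lower in LLC-Chem tumors too, and others were not. Their part in the result was not tested. By flow cytometry the study reports no significant change in leukocyte subsets with chemerin, for LLC tumors without showing the data. That measure is of cells and not of RNA. Ptprc, which encodes the leukocyte antigen CD45, fell from 124 and 124 to 55.2 and 29.3 RPM (log2 fold change -1.62, limma adjusted p = 0.0218). Of 10 macrophage markers all 10 had a negative log2 fold change, as had 7348 of the 13694 genes tested. Limma called 3 lower, Fcgr1 and Csf1r among them, beside 13.5% of all genes, and the median of the 10 was -0.79. The 10 summed to 2903 and 3573 RPM in LLC tumors against 2408 and 1538 RPM in LLC-Chem tumors. Csf1r, the receptor for the macrophage growth factor CSF1, fell from 329 and 532 to 217 and 101 RPM (log2 fold change -1.50, limma adjusted p = 0.049). The call of Csf1r stands as close to the threshold as those of H2-Aa and Ciita. The complement gene C1qa, another macrophage product, was at 468 and 546 RPM against 385 and 266 RPM and was not called (log2 fold change -0.66, limma adjusted p = 0.065). Mrc1, the mannose receptor, was at 476 and 424 RPM in LLC tumors against 482 and 383 RPM in LLC-Chem tumors (log2 fold change -0.06), and Mertk, a receptor for the uptake of dying cells, had a log2 fold change of -0.08. Neither was called by limma.

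Other marker lists gave fewer tested genes. Their counts of calls stand beside the 13.5% of all genes tested that limma called lower and the 9.54% it called higher. Of 9 dendritic cell markers 7 were tested and 1, Flt3, was called lower by limma (log2 fold change -0.82, adjusted p = 0.026). That count is near the share of all genes called lower, 13.5%. Clec9a and Zbtb46 had log2 fold changes of 0.37 and 0.44 without a call (limma adjusted p = 0.244 and 0.135). The other 4 uncalled markers were negative, Ccr7 at -1.34, Batf3 at -0.82, Cd209a at -0.80 and Itgax at -0.20, and the median log2 fold change of the 7 was -0.80. Summed, the 9 were at 63.1 and 57.0 RPM in LLC tumors against 50.4 and 39.9 RPM in LLC-Chem tumors. The 5 B cell markers summed to 5.65 and 4.45 RPM in LLC tumors against 1.25 and 1.00 RPM in LLC-Chem tumors. Cd79b was the 1 B cell marker tested and was called lower by limma, while Ms4a1 and Cd79a did not exceed 1.05 RPM in any pool. All 3 monocyte markers, Ly6c2, Ccr2 and Plac8, were called lower by limma, and they summed to 386 and 296 RPM against 117 and 81.9 RPM. Endothelial cells can carry class II molecules as well, and all 4 endothelial markers were called lower, at a sum of 183 and 129 RPM against 42.4 and 23.1 RPM. Within the LLC group all 8 class II genes were higher in the second pool, as were 4 of 4 fibroblast markers, 3 of 4 pan-leukocyte markers, 8 of 10 macrophage markers, 2 of 7 dendritic cell markers, 1 of 3 monocyte markers and 0 of 4 endothelial markers. Limma also called lower 3 of 4 pan-leukocyte markers and all 3 neutrophil markers tested of 4. It called 0 of the T cell markers, of which 1 of 5 was tested (0 at an unadjusted p under 0.05, and 0 called by edgeR or DESeq2). Of 4 fibroblast markers, 2 were called lower and 1 higher. Krt5 and Krt14, of the keratinocyte list, did not exceed 0.05 RPM.

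**Figure D4:**
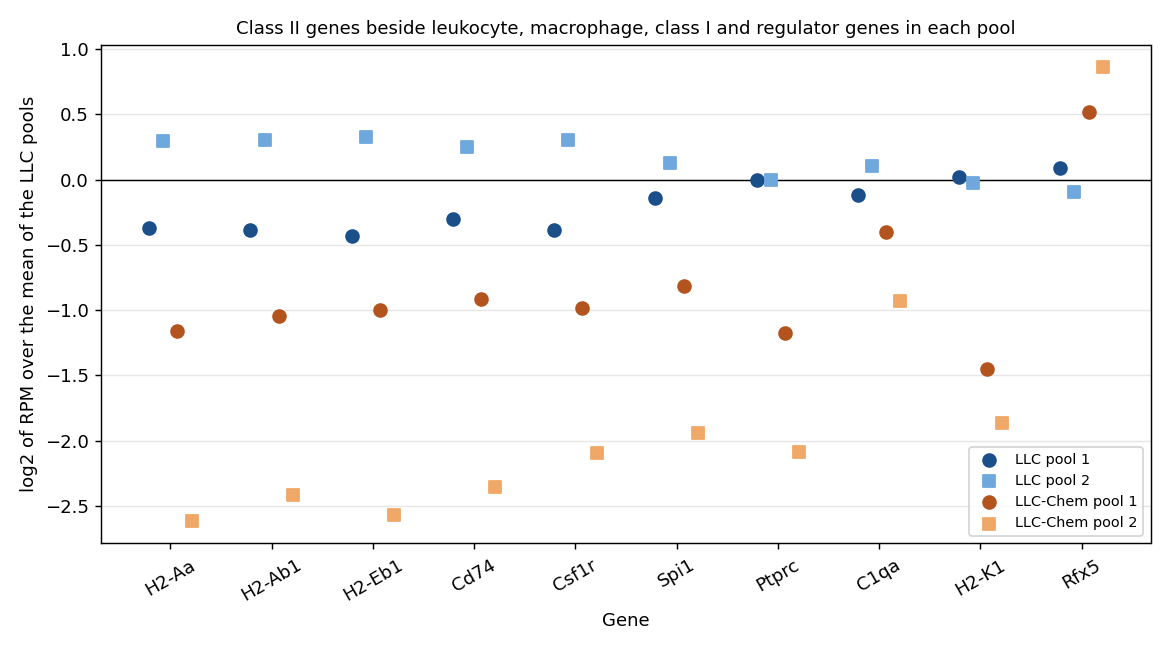
Log2 of RPM over the mean of the LLC pools for class II genes beside Csf1r, Spi1, Ptprc, C1qa, H2-K1 and Rfx5; each point is 1 pool. Csf1r follows the class II genes over the 4 pools, C1qa falls less, H2-K1 and Ptprc hardly differ between the LLC pools, and Rfx5 lies above 0 in both LLC-Chem pools.

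Set against these markers within each pool, the class II chains gave ratios that varied to different degrees. The 3 chains summed over Csf1r were at 2.19 and 2.20 in the LLC pools and 2.06 and 1.62 in the LLC-Chem pools, without overlap between the groups, a range of 1.36 times where the chains themselves ranged over 7.17 times. Over Ptprc they were at 5.78 and 9.40 in the LLC pools and 8.11 and 5.56 in the LLC-Chem pools, with overlap between the groups. Over the sum of the 10 macrophage markers they were at 0.248 and 0.327 in the LLC pools and 0.186 and 0.106 in the LLC-Chem pools, without overlap. None of these ratios was tested.

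Genes outside the lists whose log2(RPM + 0.5) followed the median of the 8 most closely over the 4 pools were Scand1, Adap1, Hp, F10, Fam20c, Myo1f, Fgr and Cybb. Their root mean square distance from that median ran from 0.069 (Scand1) to 0.154 (Cybb) on the log2 scale, where H2-Ab1 was at 0.031, Cd74 at 0.037 and H2-DMb1 at 0.458. Cybb, the catalytic chain of the phagocyte oxidase, went from 107 and 197 to 60.6 and 25.4 RPM. Myo1f, a myosin of leukocytes, went from 70.7 and 98.1 to 37.4 and 18.1 RPM. F10, which encodes coagulation factor X, went from 19.0 and 29.4 to 11.4 and 5.20 RPM. These 8 were ranked on the same pools, so their likeness is a description and no test was made.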

How the data were processed

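The authors aligned the reads to GRCm38.p4 using STAR, took gene counts from HTSeq and deposited RPM, which sum to 1000000 in each of the 4 pools. Tool versions and the use of strand are not given in the sources used here. All nonzero values (100.0%) were whole multiples of 0.04997 RPM within 0.05 steps. Totals per library were searched in steps of 1000 reads, assuming scaling to 20000000 reads with rounding up, and reads were recovered to within 1 read. The columns match the replica numbers of the labels. Replicates are pools of different tumors.

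Differences were tested with limma 3.58.1 (lmFit, eBayes with trend) in R 4.3.3 on log2(RPM + 0.5), which understates changes of weak genes, adjusted over the 13694 genes averaging 1 RPM or more. The study used edgeR, which needs counts. edgeR 4.0.16 and DESeq2 1.42.0 were run on the recovered reads as alternatives, and all were tested on simulated data. Further settings were other pseudocounts (0.1, 1), scaling by TMM or by median of ratios, a replicate block, other filters, eBayes without trend and leaving out each pool. Coordinates and exon lengths are from GENCODE M21, which held 98.9% of the identifiers. Tables and plots used Python 3.11.15.

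The members and gene lists were chosen with earlier results of these data known. Named genes are the members, the lists, genes tested within 100 kb of the members on chromosome 17 and the 8 nearest in profile. Pseudogene and paralog reads were not reassigned. Some genes of the lists are counted but not reported here by name.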

Additional observations from a re-analysis of the deposited data

How the results depend on the processing

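All 8 class II genes had a negative log2 fold change under all 17 alternatives, but the number called lower depended on the setting. Against 3 by limma, it was 1 with median-of-ratios scaling, TMM scaling, edgeR on recovered reads, a mean of at least 0.1 RPM and eBayes without trend, in each case Ctss, and 0 with no filter on low values, where 0 of all 26260 genes tested were called lower and 1 higher. With 1 pool left out, where the lone pool is assumed to vary like the other group, it ran from 0 to 0, and the log2 fold change of H2-Aa ran from -2.57 to -1.12. Apart from leaving out pools, the adjusted p of Ctss ran from 2.19e-09 by DESeq2 to 0.109 by limma with no filter. That of H2-Aa ran from 0.00996 by limma with crossed numbers, described below, to 0.17 by limma with no filter. That of Ciita ran from 0.00698 by DESeq2 to 0.166 by limma with no filter. Apart from the settings that use pairs of pools, DESeq2 gave the most calls, 4 (Ctss, Ciita, H2-DMa and H2-DMb1).

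The groups share replicate numbers, but the deviations of same-numbered pools correlated at -0.1405 and no source pairs the tumors by number. With the replicate block limma called 1 member and 13 pathway genes lower and 0 pathway genes higher, and edgeR with the block 1, 9 and 0. Over all 13694 genes, calls lower went from 1848 to 1064 by limma and 733 by edgeR with the block, and to 2320 with crossed numbers. With crossed numbers, an alternative added after the data were seen, limma called 8 members and 24 pathway genes lower and 3 pathway genes higher. Crossing paired the second LLC pool with the first LLC-Chem pool, the higher pool of each group for all 8 members. The block therefore took up their spread within groups, so the count of 8 follows from the order of the pools and adds no support.

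Of the 45 pathway genes tested, 15 were called lower and 1 higher by limma, beside 13.5% and 9.54% of all genes tested. The count lower was 0 with no filter, as over all genes. The count higher was 3 (Rfx5, Nfya and Tap2) with median-of-ratios scaling, TMM scaling, edgeR and DESeq2, and 0 with no filter, a mean of at least 0.1 RPM and eBayes without trend. With 1 pool left out both counts ran from 0 to 0. Some genes that were not called changed sign. Jak1 went to 0.009 with median-of-ratios scaling, 0.018 with TMM scaling, 0.006 by edgeR and 0.019 by edgeR with the block. With 1 pool left out, the log2 fold change ran from -0.195 to 0.137 for Jak1, from -0.256 to 0.086 for Nfyb, from -0.333 to 0.001 for Ctsl, from -0.039 to 0.111 for March8 and from -0.075 to 1.217 for Irf1. For these signs and for the calls that moved, the cause was not tested. The fewest recovered reads were 48, for Ciita, whose log2 fold change moved with the pseudocount, from -1.925 at 0.1 to -1.59 at 1. The number of members called lower was 2 with a pseudocount of 0.1 and with a mean of at least 5 RPM.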
